A study of Mus musculus with 8 samples.

Results

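The effect of diesel exhaust (DE) on gene expression in the olfactory bulb was compared across both rearing environments. All 4 arrays of exposed mice were set against all 4 arrays of mice kept in clean air, which together are the 8 arrays of the series, with 2 RNA pools a side. The comparison asked which genes differed in the same direction from both unexposed pools, whether the mice had been reared in a standard cage or with environmental enrichment. Pups of C57BL/6J dams were reared by their dam either in a standard cage (C) or in a larger cage with a running wheel and toys (EE). After weaning, per the methods, they stayed in the same type of housing. They were kept in clean air or inhaled DE for 8 hours a day on 28 days, from postnatal day 28 to 55, at a mean of 90 µg of exhaust constituents per m3 of air. The olfactory bulb was collected from males at 56 days of age. According to the methods, equal amounts of RNA were pooled from 7 C-C mice (standard cage, clean air), 7 C-DE mice (standard cage, DE), 8 EE-C mice (enrichment, clean air) and 9 EE-DE mice (enrichment, DE). Each pool took 1 mouse a cage and was divided over 2 arrays. The methods name 7 standard and 9 enriched rearing cages in all, so the exposed and clean air pools of 1 housing shared cages. A pool hides the differences between mice, so the unit of every comparison here is the pool.

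The olfactory bulb is the brain's relay for smell: axons of sensory neurons in the nose end there, so it lies next to a surface that meets inhaled air. Mitral and tufted cells carry the signal onward, and granule and periglomerular neurons, most of them GABAergic, shape it. Type I interferons are signals of innate immunity that bind a receptor on most cell types and switch on a large set of antiviral genes, through transcription factors, Stat2 and Irf9 among them, at promoter elements rich in GAAA repeats. In the brain, microglia, astrocytes and endothelium can all express these genes.

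After filters on signal, 21711 probes with 16486 gene names were measured. Each level is a log2 signal set against its array's 75th percentile, where 0 marks a spot as bright as that percentile. The labelled tissue could be checked against its markers: all 9 mitral and tufted cell genes and all 10 genes of granule and other GABAergic interneurons of the lists were measured on every array, with Cdhr1, a cadherin of mitral and tufted cells, at 4.66 to 4.76 across arrays. The 2 arrays of a pool correlated with a Pearson's r of 0.9966 to 0.9983 across probes, which are not independent replicates, and the SD between them was 0.108 to 0.155 on the log2 scale. EE-DE array 1 stood apart, with 56.7% of spots well above background against 68.0% to 70.6% on the other arrays. All arrays lay on 1 slide. Its rows 1 and 2 held clean air and its rows 3 and 4 held DE, so slide row and exposure cannot be told apart.

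No probe passed the test of exposure. With limma on the 4 pool means and housing as a covariate, 0 of 21711 probes (0%) had a Benjamini-Hochberg adjusted p under 0.05, and the smallest adjusted p was 0.545. Before adjustment, 1699 probes (7.83%) had a p under 0.05, of which 716 (3.3%) were higher and 983 (4.53%) lower after exposure. An exact permutation test of 2 pools against 2 cannot give a two-sided p below 0.333. The differences that follow are therefore described by their size and by the arrays that show them, and none of them passed the test.

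Both exposed pools were above both clean air pools for 3180 probes (14.6%) and below them for 4474 (20.6%). With pools ordered at random, the exposed pools lie on one side of both clean air pools with a probability of 0.333. That is the lower limit of the permutation test above, and the shares above and below together lay close to it. The counts by pools therefore do not by themselves show an effect of exposure. The signal of exposed mice was higher in both housings for 5398 probes (24.9%), lower in both for 6879 (31.7%) and opposite in the 2 housings for 9434 (43.5%). When every exposed array had to lie on the same side of every clean air array, 384 probes (1.77%) were higher and 678 (3.12%) lower. The excess of lower probes depended on the scaling: with quantile normalization 526 were higher and 506 lower on all arrays, and 3853 above and 3729 below by pools. The median difference over all probes was −0.01.

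The mean difference reached 1.5-fold upward for 18 probes (0.0829%) and downward for 36 (0.166%). A difference of at least 1.5-fold in the same direction in both housings was rarer. It was found for 4 probes that were higher (0.0184%) and 14 that were lower (0.0645%) after exposure. Across the alternatives given at the end, these counts ranged from 0 to 35 and from 2 to 79. Xlr4a lay just inside that threshold, with −1.11 in standard cages and −0.59 in enrichment, and Gm10693 just outside it, with 0.61 and 0.57.

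Pom121l2, a relative of a nuclear pore protein, had a log2 level of −1.96 and −3.12 on the C-C arrays and of −3.02 and −3.23 on the EE-C arrays. On the exposed arrays it was −4.03 and −4.19 in C-DE and −4.16 and −4.39 in EE-DE. Every exposed array was thus below every clean air array, and the mean difference was −1.36 ± 0.12 (SE, 2 pools a side), or 2.57-fold (limma adjusted p = 0.557). This and all later SEs are moderated by limma. They draw largely on the spread of all probes (median SE 0.05) and are not the spread of 1 gene alone. The probe lies on chromosome 13 from 22076460 to 22076519 of the mm9 build.

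Bhlha9, a transcription factor of limb development, showed the next largest difference without overlap between arrays. Its log2 level was −1.27 and −1.39 in C-C and −0.88 and −0.05 in EE-C, against −2.23 and −2.10 in C-DE and −2.18 and −1.87 in EE-DE. The mean difference was −1.20 ± 0.19 (SE, 2 pools a side), a 2.29-fold lower signal at chromosome 11, 76487119 to 76487178.

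Alx4, a homeobox factor of skull and limb development, differed almost equally in both housings. Its level was −2.73 and −2.08 in C-C, −2.72 and −2.75 in EE-C, −3.28 and −3.12 in C-DE and −3.61 and −3.39 in EE-DE. The difference was −0.79 in standard cages and −0.77 in enrichment, and its mean of −0.78 ± 0.04 (SE, 2 pools a side) had a limma adjusted p of 0.545.

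Gm6034 (1.00 lower), Zbtb46, a zinc finger factor known from dendritic cells (0.70 lower), and Arhgef33 (0.65 lower) also had no overlap between arrays and passed 1.5-fold in both housings. Their levels were low, between −5.74 and −3.20 on all arrays. The other lower genes past 1.5-fold in both housings overlapped between arrays, as did the higher Olfr1257 (0.87) and 1700027J07Rik (0.73). Among them were the X-linked genes Rhox3a (−0.92 in standard cages, −1.10 in enrichment), Xlr4a and Xlr4b (−1.21 and −0.59). Psapl1, on chromosome 5, differed by −0.70 and −0.86. Xlr4a and Xlr4b are near-identical copies, so their probes may not count as separate genes.

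Single arrays decided some of the largest values. Without C-C array 2, the mean difference went from −0.85 to −0.52 for Xlr4a and from −0.90 to −0.53 for Xlr4b, and without EE-C array 2 that of Olfr1257 went from 0.87 to 0.49. Gm9054 differed by −1.66 on average, but C-C array 2 read 2.02 while the other clean air arrays read −2.81 to −2.61, and without that array the difference was −0.48. Bpifa6 and BC048679 differed by −2.05 and −1.99, yet C-DE array 1 read −0.63 and −1.55 where C-DE array 2 read −3.31 and −4.24. For Gas7 the difference of −0.74 came from EE-C array 1, at 0.63 against −2.02 to −1.97 on the other clean air arrays, and it was −0.08 without it. The same array set the difference of −0.65 for E130304I02Rik, which was −0.16 without it.

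Chat, which encodes choline acetyltransferase, the enzyme that makes acetylcholine, had higher signal on every exposed array. Its level was −2.22 and −2.48 in C-C and −2.51 and −2.11 in EE-C, against −1.71 and −1.73 in C-DE and −1.94 and −1.67 in EE-DE. The difference was 0.63 in standard cages and 0.51 in enrichment, with a mean of 0.57 ± 0.05 (SE, 2 pools a side) or 1.48-fold (limma adjusted p = 0.557). Its probe lies on chromosome 14 from 33221421 to 33221480.

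Reck, a membrane-anchored inhibitor of matrix metalloproteinases, read −3.76 and −3.72 in C-C, −3.74 and −3.76 in EE-C, −3.36 and −3.23 in C-DE and −3.36 and −2.93 in EE-DE. The clean air arrays lay close together, below all exposed arrays, and the mean difference was 0.52 ± 0.06 (SE, 2 pools a side). The other Reck probe did not show this, at −0.03 in standard cages and −0.04 in enrichment.

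Rxfp3, the receptor of the neuropeptide relaxin-3, was 0.69 higher in standard cages and 0.74 higher in enrichment. With Gm4098, it was 1 of the 2 genes with higher signal that passed 1.5-fold in both housings with no overlap between arrays. The level of Rxfp3 was −5.30 to −4.95 on the clean air arrays and −4.72 to −4.15 on the exposed arrays. Further genes with all exposed arrays above all clean air arrays were Stfa2, a cysteine protease inhibitor of the stefin family (0.76), Cpb2, a carboxypeptidase of the blood plasma (0.52), Mageb1 (0.49) and Ostb, a subunit of the bile acid transporter now named Slc51b (0.45). The plot by array shows the spread of Rxfp3, Gm4098, Chat, Reck and the lower genes named in its caption. With normexp background correction the differences were smaller, at 0.29 for Rxfp3, 0.27 for Gm4098, 0.25 for Stfa2, 0.32 for Reck and 0.45 for Chat. On the lower side they were −0.61 for Pom121l2, −0.92 for Bhlha9, −0.45 for Alx4, −0.27 for Gm6034, −0.22 for Zbtb46 and −0.27 for Arhgef33.

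**Figure D1:**
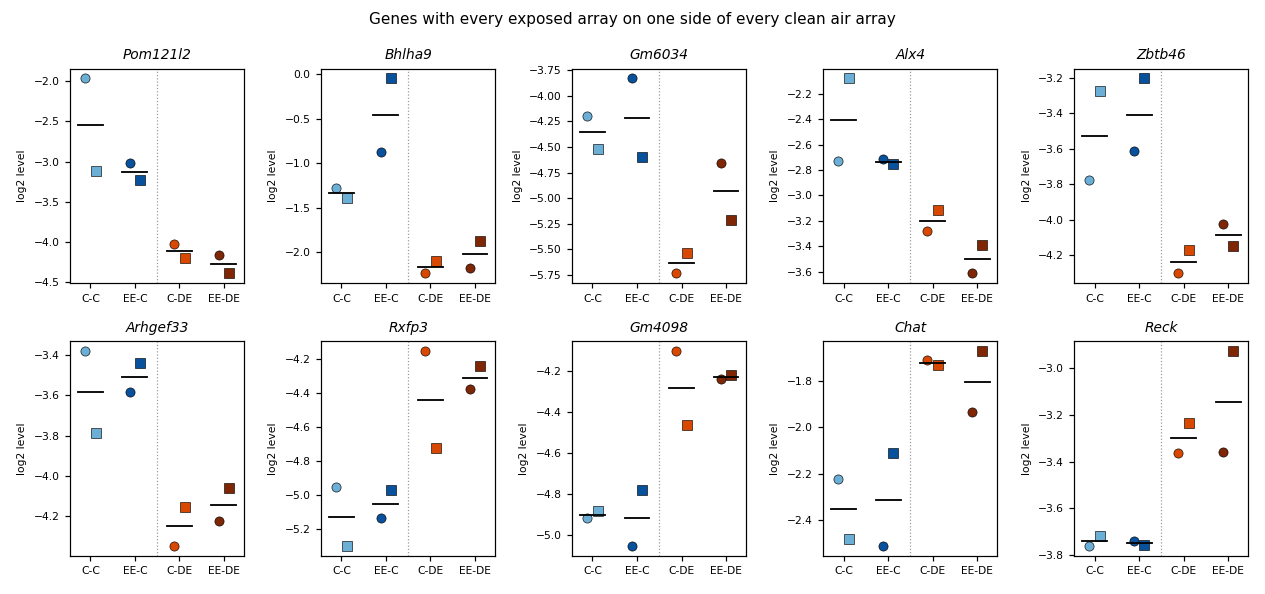
Log2 level (signal minus the array's 75th percentile) of 10 genes on the 8 arrays, with clean air pools left and DE pools right of the dotted line. Circles are array 1 and squares array 2 of a pool, the bar is the pool mean, and each panel has its own scale. Every exposed array is below every clean air array for Pom121l2, Bhlha9, Gm6034, Alx4, Zbtb46 and Arhgef33, and above for Rxfp3, Gm4098, Chat and Reck.

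Interferon-induced genes were the largest group with a shared direction, but it rested on 1 array of each exposed pool. Of the 38 genes listed, 37 were on the array and 37 passed the filter, with 44 probes. Both exposed pools were above both clean air pools for 29 of the 44 (65.9%, against 14.6% of all probes) and below for 0, and 0 were above on all arrays. The median difference was 0.17, with 0.20 in standard cages and 0.10 in enrichment, while the median over all probes was −0.01. None of the 44 passed the limma test. The study had chosen Ifit3, Oasl2, Isg15, Ifi27l2a and Rtp4 on these arrays, so they are not independent evidence of the direction.

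The sequences below show the promoter element by which such genes are known, a pair of GAAA repeats that binds interferon-activated factors. GAAA, any 2 bases and again GAAA, on either strand, was searched in the 250 bases before the start of RefSeq genes on GRCm38.p6. Of 27025 genes with a window, 936 (3.46%) held a match. Of the 37 interferon-induced genes measured, 26 had a window and 12 of them (46.2%) held a match, and so did Cxcl10. Each line gives 30 bases, 5′ to 3′ on the gene's strand, with the match in capitals.
Ifit3, chr19:34583397-34583426, + strand: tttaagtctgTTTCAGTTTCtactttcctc
Ifit1, chr19:34640794-34640823, + strand: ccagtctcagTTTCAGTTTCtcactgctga
Isg15, chr4:156200871-156200900, − strand: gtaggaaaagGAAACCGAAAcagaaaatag
Gbp3, chr3:142559989-142560018, + strand: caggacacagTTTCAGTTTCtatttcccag
Rsad2, chr12:26456553-26456582, − strand: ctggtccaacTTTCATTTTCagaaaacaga
Cxcl10, chr5:92349083-92349112, − strand: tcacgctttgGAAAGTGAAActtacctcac
The matches of Ifit3 and Ifit1 begin 122 and 85 bases before the start, that of Isg15 72 bases, of Gbp3 45, of Rsad2 120 and of Cxcl10 213. A match describes the letters and does not show that a factor binds there.

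Ifit3, which encodes an antiviral protein of the IFIT family, read 0.58 and 0.66 in C-C, 1.11 and 1.08 in EE-C, 0.91 and 1.45 in C-DE and 1.57 and 1.19 in EE-DE. The exposed pool means were both above the clean air pool means, but C-DE array 1 lay below both EE-C arrays. The difference was 0.56 in standard cages and 0.28 in enrichment, with a mean of 0.42 ± 0.08 (SE, 2 pools a side) or 1.34-fold (limma adjusted p = 0.579).

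Isg15, a ubiquitin-like protein that is joined to other proteins during the interferon response, was measured by 2 probes. On 1 of them it read 1.36 and 1.49 in C-C, 1.76 and 1.73 in EE-C, 1.57 and 2.27 in C-DE and 2.15 and 1.74 in EE-DE. C-DE array 2 and EE-DE array 1 were high, while the other exposed arrays lay within the range of the clean air arrays. The difference was 0.49 in standard cages and 0.20 in enrichment, and on the other probe it was 0.69 and 0.03.

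Oasl2, a relative of the 2′-5′ oligoadenylate synthetases that sense viral RNA, read −0.83 and −0.73 in C-C and −0.46 and −0.46 in EE-C. In C-DE it read −0.57 and −0.03, and in EE-DE 0.08 and −0.42. The mean difference was 0.38 ± 0.06 (SE, 2 pools a side). Here too the same 2 exposed arrays were high.

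Ifi27l2a differed by 0.30 and 0.38 in the 2 housings, Rtp4 by 0.41 and 0.23, Ifi44 by 0.47 and 0.20, Ifitm3, which blocks the entry of viruses, by 0.29 and 0.24, and Gbp3, an interferon-induced GTPase, by 0.40 and 0.18. Irf7, a transcription factor that raises interferon production, differed by 0.32 and 0.10. Stat2 and Irf9, which carry the signal from the receptor, differed less, with 0.01 and −0.01 for Stat2 and 0.10 and 0.10 for Irf9.

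Within the C-DE pool, 42 of the 44 probes were higher on array 2, by a median of 0.24, and within the EE-DE pool 41 of the 44 were higher on array 1, by a median of 0.32. According to the methods, both arrays of a pool carried the same RNA, and the medians in the clean air pools were −0.03 and 0.04. Whether they did was not tested. The pool means average over such differences, and the moderated SEs, taken between pools over all probes, do not contain them. Without C-DE array 2, 9 probes had both exposed pools above both clean air pools, and without EE-DE array 1, 12 had. Without both arrays, 3 were above and 5 below, with a median difference of 0.02. EE-DE array 1 is also the array with the fewest spots above background, whose part in the result was not tested. Over the same probes, EE-C exceeded C-C by a median of 0.15.

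**Figure D2:**
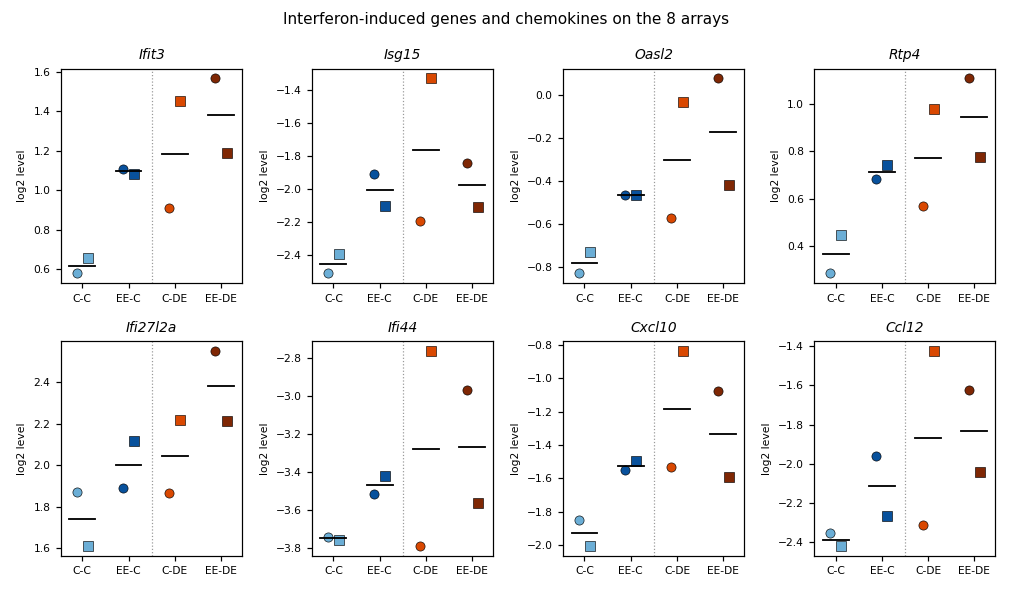
Log2 level of 6 interferon-induced genes and 2 chemokines on the 8 arrays, clean air left and DE right of the dotted line (circles array 1, squares array 2, bar pool mean, own scale in each panel, Isg15 by the probe with differences of 0.69 and 0.03). In each panel C-DE array 2 and EE-DE array 1 are the highest exposed arrays, and C-DE array 1 or EE-DE array 2 lies within the range of the clean air arrays.

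Of the chemokine list, which holds signals that attract immune cells and their receptors, 21 of 27 genes on the array passed the filter, with 29 probes. Both exposed pools were above for 7 probes (24.1%, against 14.6% of all probes) and below for 2 (6.9%, against 20.6%), and the median difference was small (0.01 in standard cages and −0.04 in enrichment). Cxcl10, an interferon-induced ligand of Cxcr3, read −1.85 and −2.01 in C-C, −1.55 and −1.49 in EE-C, −1.53 and −0.84 in C-DE and −1.08 and −1.59 in EE-DE. It differed by 0.74 in standard cages and 0.19 in enrichment, and EE-DE array 2 was below both EE-C arrays. Ccl12, a ligand of Ccr2, differed by 0.52 and 0.28, while Ccr2 itself did not pass the filter. Without C-DE array 2 the mean difference of Ccl12 went from 0.40 to 0.18 and that of Cxcl10 from 0.46 to 0.29, and without EE-DE array 1 as well they were 0.07 and 0.16. The Cxcl11 probes disagreed, with a mean difference of −0.20 at 1 probe and 0.14 at the other. The study had chosen Cxcl10 and Ccl12 on these arrays.

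Genes of antigen presentation, many of them induced by interferon, had both exposed pools above for 6 of 16 probes and below for 1, against 14.6% and 20.6% of all probes. The median was 0.06 in standard cages and 0.07 in enrichment, and 0.07 over both. All 16 probes were higher on EE-DE array 1 than on array 2, by a median of 0.23. The median over both was 0.01 without EE-DE array 1, 0.03 without EE-C array 2 and 0.13 without EE-DE array 2. Tap2, a subunit of the transporter that loads peptides onto class I molecules, was higher on every exposed array, at 1.79 to 1.84 against 1.68 to 1.78. Of the cytokines and inflammatory mediators, Il1a, Il1b, Tnf, Il6 and Il10 did not pass the filter. Of the 13 probes that did, 3 were above and 3 below by pools (23.1% each, against 14.6% and 20.6% of all probes). Their median was 0.01 in standard cages and −0.05 in enrichment, so the list had no shared direction. Nos2, the inducible nitric oxide synthase, was lower on every exposed array, at −2.36 to −1.99 against −1.96 to −1.59, a difference of −0.38 ± 0.05 (SE, 2 pools a side).

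Neutrophil genes shared the opposite direction. All 9 probes of the 8 genes measured were lower after exposure in both housings, against 31.7% of all probes, and 5 of 9 had both exposed pools below both clean air pools, against 20.6% of all probes. The median difference was −0.48, with −0.62 in standard cages and −0.34 in enrichment. S100a9, a calcium-binding protein that is abundant in neutrophils, read 1.59 and 1.28 in C-C, 2.52 and 0.85 in EE-C, 0.66 and 0.46 in C-DE and 1.75 and 1.00 in EE-DE. The standard-cage arrays did not overlap, while the enriched arrays did. Its partner S100a8, which the study had chosen on these arrays, differed by −0.89 and −0.26, Ltf, the granule protein lactoferrin, by −0.95 and −0.34, Ngp by −0.73 and −0.32 and Elane, neutrophil elastase, by −0.24 and −0.35. In bulk tissue, fewer cells of a type and less RNA per cell cannot be told apart.

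The neutrophil difference also leaned on single arrays. EE-C array 1 was above EE-C array 2 for 9 of 9 probes, by a median of 1.41, and without it 1 probe had both exposed pools below, at a median of −0.15. Without EE-C array 2 the median was −0.90. Without EE-DE array 2 that count was also 1, without C-C array 1 it was 2, and without EE-DE array 1 it was 9. Hemoglobin and other red blood cell genes, which would accompany blood in the tissue, had a median of −0.22 in standard cages and −0.03 in enrichment.

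**Figure D3:**
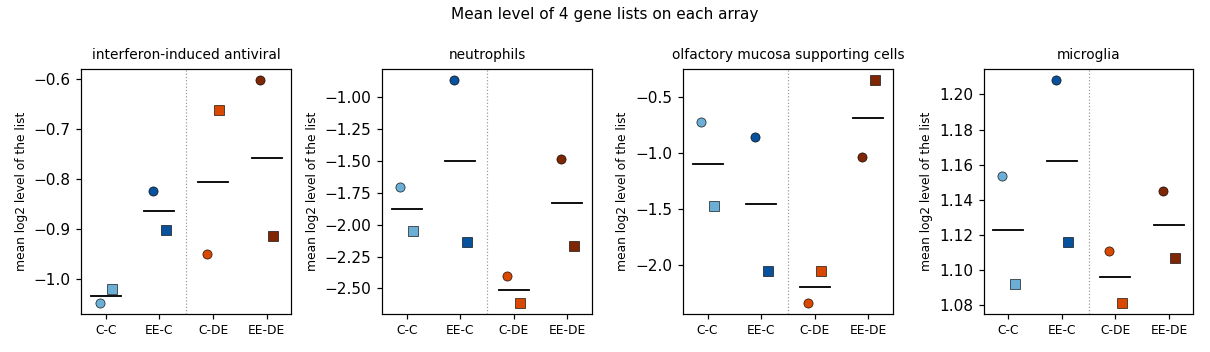
Mean log2 level of 4 gene lists on each array, clean air left and DE right of the dotted line (circles array 1, squares array 2, bar pool mean, own scale in each panel). The interferon list was highest on C-DE array 2 and EE-DE array 1, the neutrophil list was highest on EE-C array 1, and the mucosa list was lowest on C-DE array 1 and highest on EE-DE array 2, whereas the microglia list stayed between 1.08 and 1.21.

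Supporting cells of the olfactory mucosa, the epithelium of the nose that borders the bulb, had no shared direction. Of their 13 probes, 0 had both exposed pools on the same side of both clean air pools. Their median difference was −1.20 in standard cages and 0.72 in enrichment. Cyp2g1, an olfactory cytochrome P450, differed by −1.59 and 1.30. Within pools, all 13 probes were higher on C-C array 1 (median 0.73) and on EE-C array 1 (1.25) than on array 2, and all 13 were lower on EE-DE array 1 (−0.70). Olfactory sensory neuron genes differed by a median of −0.19 and 0.11, bone genes by −0.41 and 0.11. Of the nasal gland genes, 3 of 10 passed the filter, and the difference of −0.88 for Obp1a came from 1 array, EE-C array 2.

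A list of genes with RT-PCR measurements, chosen by the study on these arrays, held 16 probes, of which 4 had both exposed pools above (25%, against 14.6% of all probes) and 3 below (18.8%, against 20.6%). Fam13c was higher on every exposed array at 1 probe, by 0.54 in standard cages and 0.19 in enrichment, and by 0.05 and 0.07 at another. Sdad1, which acts in ribosome assembly, was lower on every exposed array, at −1.32 to −1.10 against −1.03 to 0.21, with differences of −1.14 and −0.34. Its other probe gave −0.11 and −0.07. The Sdad1 probe (chromosome 5, 92727219 to 92727278) and that of Cxcl10 (chromosome 5, 92775781 to 92775840) lie close to each other, and they differed in opposite directions. Nr1i3, a nuclear receptor of foreign compounds, differed by −0.97 and −0.15. The Chmp4b probes differed by 0.80 and −0.14, by 0.18 and 0.05 with every exposed array above, and by 0.08 and −0.10. The Dbp probes differed by 0.18 and 0.01 and by 0.01 and −0.16. Aqp3, Cyp2f2, Krt18, Mslnl and Umodl1 were lower in standard cages and higher in enrichment.

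**Figure D4:**
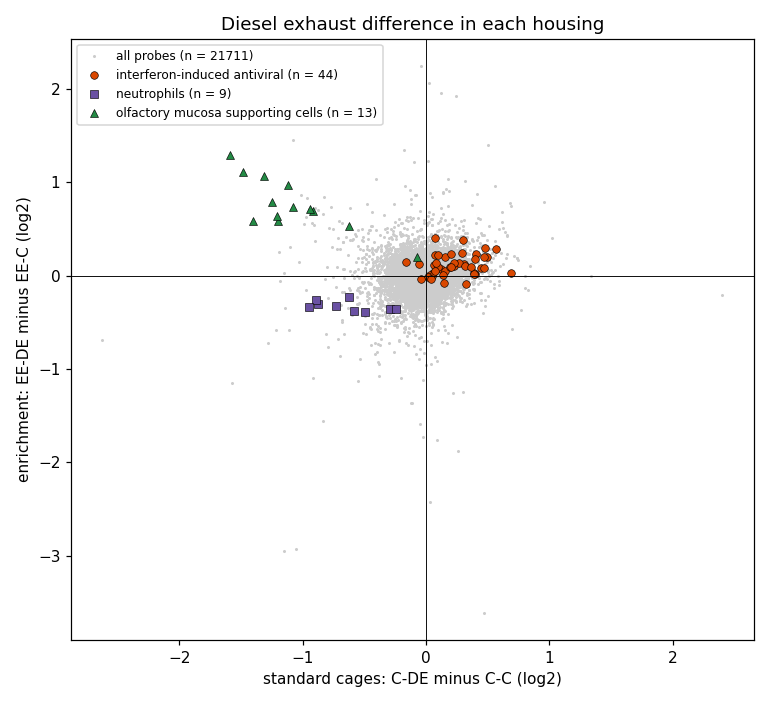
Difference between exposed and clean air pools (log2) in standard cages (x axis) and in enrichment (y axis) for all 21711 probes (grey), with 3 gene lists in colour. Of the 44 interferon probes 36 lie at upper right, all 9 neutrophil probes lie at lower left, and all 13 mucosa probes have opposite signs.

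In the aryl hydrocarbon receptor pathway, which senses polycyclic aromatic compounds, Cyp1a1 and Cyp1a2 did not pass the filter, and Cyp1b1 differed by −0.01 in standard cages and −0.12 in enrichment. The Aldh3a1 probes disagreed, at −0.24 and 0.24. Nqo1, a quinone reductase under both Ahr and Nrf2, differed by 0.18 and 0.10. Of the 25 probes of Nrf2 targets, the genes of the response to oxidants, 5 had both exposed pools above and 6 below, close to the 14.6% and 20.6% of all probes. Ptgr1, a reductase of prostaglandins and leukotrienes, had the largest difference of those separated by pools, at −0.15 and −0.74, but EE-C array 1 read −1.30 where the other arrays read −2.95 to −2.69. Hmox1, heme oxygenase, differed by 0.09 and −0.07 at 1 probe and by −0.14 and −0.06 at the other. Cat, which encodes catalase, differed by 0.32 and 0.28 at 1 probe (0.30 ± 0.04, SE, 2 pools a side) and by 0.04 and 0.03 at the other. Antioxidant enzymes as a list had medians of 0.02 and −0.01, and heat shock proteins 0.03 and −0.01.

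Cry1, a repressor of the clock, differed by −0.27 and −0.34 with no overlap between pools, and Per2, another repressor, by 0.15 and 0.19. Of the 16 probes in phase with Dbp, 1 was above and 2 were below by pools (6.25% and 12.5%, against 14.6% and 20.6% of all probes). Their median was 0.02, and leaving out single arrays moved it between −0.01 (without EE-C array 1) and 0.06 (without C-DE array 1). Of the 6 in antiphase, with a median of −0.06, 2 were below (33.3%, against 20.6% of all probes) and 0 above by pools. Immediate early genes, which neurons switch on with activity, had a median of 0.12, and 3 of 17 probes had both exposed pools above (17.6%, against 14.6% of all probes). All 17 were higher on EE-DE array 1 than on array 2, and leaving out single arrays moved the median from 0.03 (without EE-DE array 1), 0.04 (EE-C array 1) and 0.05 (C-C array 2) to 0.17 (C-C array 1), 0.18 (EE-C array 2) and 0.20 (EE-DE array 2). Glucocorticoid response genes had a median of −0.04, with 4 of 14 probes below (28.6%, against 20.6% of all probes) and 0 above. Without EE-C array 1 that median was −0.0048, without C-DE array 1 −0.02 and without EE-C array 2 −0.07.

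Cell types of the bulb itself differed by little. The medians in standard cages and enrichment were −0.03 and 0.01 for microglia, −0.01 and 0.01 for astrocytes, −0.03 and 0.02 for oligodendrocytes, 0.04 and 0.02 for brain endothelium, 0.01 and −0.01 for mitral and tufted cells, and 0.02 and −0.05 for granule and other GABAergic interneurons. On all arrays, 1 probe was above and 1 below among the 14 of astrocytes, and the same held for the 14 of granule and other GABAergic interneurons. Of oligodendrocyte probes 1 of 17 was below, of brain endothelium 1 of 12 was above, and of mitral and tufted cells 0 of 11 were separated. Of the microglia probes, 2 of 22 were below and 0 above on all arrays, against 3.12% and 1.77% of all probes. By pools 6 were below and 2 above, and 8 were lower and 6 higher in both housings, against 31.7% and 24.9% of all probes. P2ry12, a purine receptor of microglia, read 0.31 to 0.41 after exposure against 0.46 to 0.75. Gfap, the intermediate filament of astrocytes, was 0.11 higher at 1 probe, and 0.10 and 0.03 higher at 2 others that overlapped between arrays. Aldoc, an astrocyte enzyme of glycolysis, was 0.15 lower. Of the neuropeptide precursors, with medians of −0.03 and 0.02, 3 of 12 probes were above (25%) and 2 below (16.7%) by pools, against 14.6% and 20.6% of all probes. The largest mean difference of the list was −0.47 for Oxt, the oxytocin precursor, with −1.19 in standard cages and 0.25 in enrichment. Sst and Pomc were 0.18 and 0.17 higher on average with overlap between arrays, and Cck and Nts were 0.11 and 0.16 lower without it. Of the brain endothelium probes, 4 of 12 were above (33.3%) and 1 below (8.33%) by pools, against 14.6% and 20.6% of all probes. Pecam1, an adhesion protein of endothelium, was 0.09 higher.

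**Figure D5:**
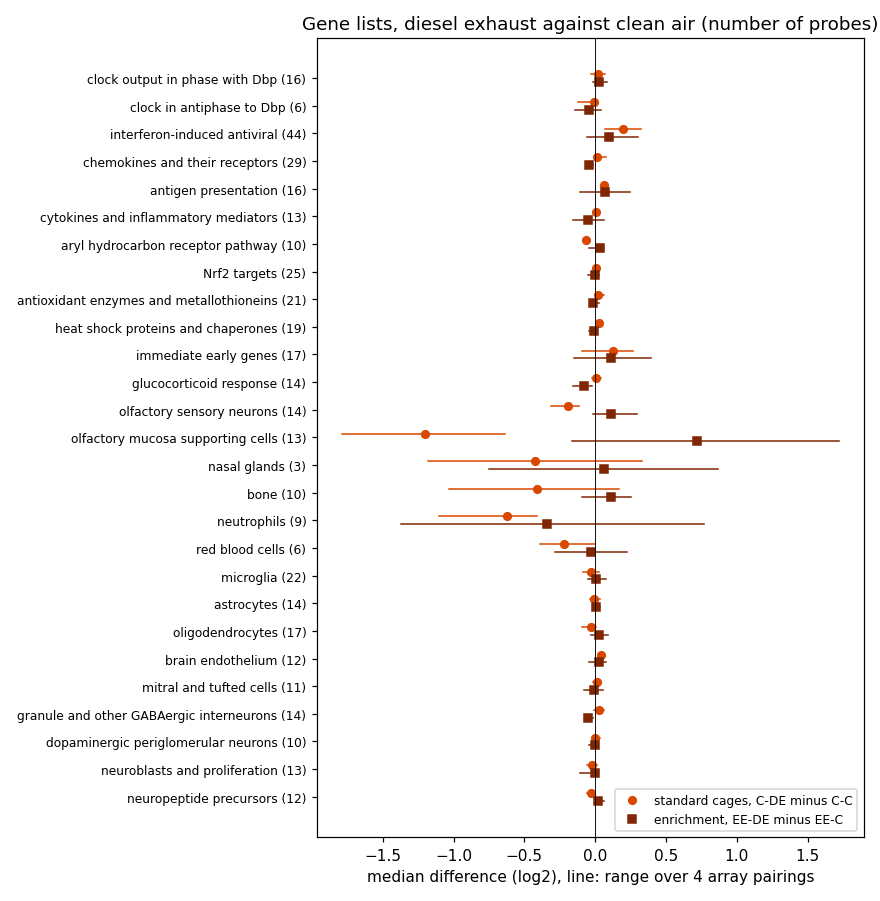
Median difference between exposed and clean air pools (log2) for each gene list, in standard cages (circles) and enrichment (squares), with the number of probes in brackets and a line for the range over the 4 pairings of arrays. Medians of brain cell types lie near 0, that of the interferon list above 0 and that of the neutrophil list below 0 in both housings, with lines that cross 0 in enrichment, and those of the mucosa list lie on opposite sides.

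A few probes were detected on one side only. Of 31290 single-spot probes, 8 (0.0256%) were well above background on all clean air arrays and on no exposed array, and 0 (0%) the other way round. Prg2, a granule protein of eosinophils, was at least 1.51-fold lower after exposure, and Ubd, a ubiquitin-like protein of the immune response, at least 1.43-fold. The bounds of the other 6, among them B3gnt6 and Dmbx1, were 1.02 to 1.19. Without EE-DE array 1, the counts were 8 on clean air and 12 on exposed arrays alone.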

How the data were processed

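Each array's intensity table, deposited by the authors, came from Agilent Feature Extraction 10.7.3.1, which, per the file headers, had removed background and spatial trends within each array but had not scaled arrays to each other. The log2 values of the series table were made by the authors and served as an alternative. The log2 processed signal minus the 75th percentile of noncontrol spots was computed for each array. Spots were kept if named by a GenBank or RefSeq accession, well above background on all arrays and free of outlier flags (23983 spots, 21711 probes). A corner of EE-C array 1 (rows above 310, columns up to 12) was set aside, where 307 probes had a spot. Arrays of a pool were averaged, because the methods describe them as technical duplicates, and their numbers pair no samples, and pools were fitted with limma 3.58.1 in R 4.3.3 on exposure and housing (1 residual degree of freedom, prior 2.75). The fit was tested on simulated data. Python 3.11.15 and matplotlib 3.10.9 drew the plots. Alternatives changed the background correction, scaling, filters, corner, model and arrays used.

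Named genes were the 12 largest differences upward and the 12 largest downward without overlap between arrays, genes past 1.5-fold in both housings, the RT-PCR genes, up to 4 members of each list and one-sided genes. Other list members were named after their values were seen. Members and lists were chosen with earlier results of these data known. Gene names are those of the array. A later RefSeq table (GRCm38.p6) named 19432 of 20134 probes with a RefSeq accession and gave 17454 the same symbol. Precision is limited by the number of pools and by signal over background.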

Additional observations from a re-analysis of the deposited data

Results flagged for a closer look

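Among the genes named by rule and the list medians, 4 results ran in opposite directions in the 2 housings on every pairing of arrays, and the difference between housings was not tested for any of them. For Mslnl the exposure difference was −1.12 in standard cages and 0.97 in enrichment, which lie 2.09 apart. For Umodl1 it was −1.31 and 1.07, which lie 2.38 apart. The median of the chemokine list was 0.01 and −0.04 (a gap of −0.0553), and that of the neuropeptide precursors −0.03 and 0.02 (a gap of 0.0448). Both genes belong to the list of olfactory mucosa supporting cells, whose levels also differed between the arrays of a pool.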

How the results depend on the processing

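The count of probes called by limma was 0 under all alternatives but 1, and it was 0 to 0 when single arrays were left out. With the 8 arrays and the pool as a random block (consensus correlation −0.35) it was 88, with 39 higher and 49 lower. That fit draws on duplicate arrays, and its negative correlation shrinks the SE of a difference between pools. Its calls therefore do not hold with the pool as the unit. Adding the array number as a replicate block gave 0 (smallest adjusted p 0.0682), and the numbers only count the arrays of a pool. Probes at least 1.5-fold higher or lower in both housings, 4 and 14 as reported, numbered 0 and 2 with normexp, 0 and 2 among the brighter 75% of spots, 35 and 57 with a looser signal flag, and 9 and 79 with signal required on all arrays of 1 side. All noncontrol spots gave 27 lower, and 584 above on all arrays. A 2-fold threshold gave 0 and 3, and 1.5-fold in all 4 pairings 0 and 2. Leaving out single arrays gave 3 to 15 higher and 10 to 31 lower, and 602 to 914 above and 982 to 1253 below on all arrays. Both pools above ranged from 2978 to 3568, and both below from 4233 to 4873. In alternatives chosen after seeing the data, leaving out both first enriched arrays gave 17 and 27 at 1.5-fold and 1469 above and 1911 below on all arrays, and leaving out C-DE array 2 and EE-DE array 1 gave 11 and 34, 1380 and 2029. Leaving out arrays makes separation easier by construction, and the causes of the other changes were not tested. Of 1140 alternative values for named genes, 984 moved by less than the SD between the 2 housings and 156 by more. That SD is each gene's own and is wide where the housings disagree, so these counts do not measure stability. Gas7 stayed within it in all 21 alternatives with values from −1.40 to −0.08, while Alx4, from −0.94 to −0.45, moved beyond it in 9 of 20. The sign turned in 17 of the 1140 values, all for Aqp3, Cyp2f2, Krt18, Mslnl and Umodl1 (5 genes), whose differences are opposite in the 2 housings. Without both first enriched arrays these read 0.25, 0.35, 0.18, 0.37 and 0.37. Of 588 alternative values for list medians, 104 moved by more than that SD and 81 changed sign.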
